A study of Mus musculus with 7 samples.

Results

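Axon guidance ligands and receptors were examined in open chromatin of adult mouse β cells that had lost the chromatin remodellers CHD3 and CHD4. Members were the semaphorin, plexin, neuropilin, ephrin, Eph receptor, Slit, Robo, netrin, netrin-G, Dcc and Unc5 genes, taken by gene symbol from the deposited table of accessible regions. The rule found 238 of 61288 listed regions, assigned to 58 of 24453 genes. Of 71 gene symbols that the rule covers in RefSeq, 13 had no listed region, among them Ntn1, Efnb2, Plxna3 and Robo4. ATAC-seq, which marks open chromatin by where the Tn5 transposase cuts, was run on Tomato-positive β cells that were flow-sorted from the dispersed islets of male mice. The Chd3/4Δβ group (labelled Chd3-4Db, 3 libraries) carried floxed Chd3 and Chd4 alleles, and the Control group (4 libraries) carried wild-type alleles. Both groups carried the MIP-CreERT transgene, a tamoxifen-inducible Cre driven by the mouse Ins1 promoter, and the R26 LSL-tdTomato reporter, and both received tamoxifen from the fourth week of age. The comparison asks how loss of CHD3 and CHD4, the motor subunits of NuRD, a complex that moves nucleosomes and removes histone acetyl groups, alters accessibility.

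Guidance genes encode paired cell-surface or secreted ligands and receptors that steer growing axons by attraction or repulsion. Semaphorins signal through plexins, with neuropilins as co-receptors for the secreted class 3 members. Ephrins bind Eph receptor tyrosine kinases on neighbouring cells, Slits bind Robo receptors, and netrins bind DCC and UNC5 receptors. The same families act outside the nervous system: in the mouse islet, EphA5 and ephrin-A5 carry signals between β cells, and Robo receptors are needed for normal islet architecture.

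Values are normalised read counts (CPM), the reads of a region scaled to the size of the library. The library sizes behind them ranged over 17.8 to 44.0 M reads in Chd3/4Δβ and 17.6 to 42.4 M reads in Control. Between 48.1% and 49.6% of each library lay in listed regions. Over the 238 guidance regions, log2 CPM correlated at r = 0.932 to 0.974 within Chd3/4Δβ, 0.957 to 0.966 within Control and 0.577 to 0.706 between the groups, across regions that had been listed because they differ. Chd3/4Δβ replicate 3 was the least like the other Chd3/4Δβ libraries. No listed region was assigned to Chd3 or Chd4, so the deletions were not checked from accessibility. Control replicates 1 to 3 share a lane tag in the column names that no other library has, and Chd3/4Δβ replicate 3 has a lane tag of its own, so a difference between runs cannot be told apart from the difference between groups. Whether each replicate is a different animal is not stated in the labels, and p-values therefore describe how far these libraries vary, which may be technical. Regions within 2000 bases of the start of 7 β-cell marker genes summed to 252 to 397 CPM in Chd3/4Δβ and 510 to 628 CPM in Control, so the sorted cells held open β-cell genes in both groups. Of the regions of these and 1 further β-cell marker, 8 of 38 were higher and 14 lower. At mesenchymal markers the sums were 52.1 to 62.4 CPM in Chd3/4Δβ and 20.7 to 25.5 CPM in Control, and 11 of 17 regions were higher and 1 lower. At 1 glial marker they were 24.0 to 30.1 CPM in Chd3/4Δβ and 15.4 to 17.4 CPM in Control, and at 1 immune marker 1.86 to 1.98 CPM in Chd3/4Δβ and 0.430 to 0.801 CPM in Control. At 2 of 7 endothelial markers the sums were 1.86 to 2.63 CPM in Chd3/4Δβ and 3.58 to 5.33 CPM in Control. Yet 6 of 16 endothelial regions were higher and 2 were lower. At α-cell markers the sums were 26.0 to 40.5 CPM in Chd3/4Δβ and 40.5 to 45.5 CPM in Control, although 7 of 9 α-cell regions were higher and 1 was lower. Delta-cell markers had 16.5 to 27.4 CPM in Chd3/4Δβ and 13.2 to 15.4 CPM in Control, and 3 of 5 regions were higher and none lower. Acinar and ductal sums overlapped between the groups. Of acinar regions 4 of 8 were higher and 1 was lower, and of ductal regions 8 of 18 were higher and 2 were lower. Ppy, which marks pancreatic polypeptide cells, had no listed region. Their part in the results was not tested, and in bulk libraries a change in the share of cells and a change in accessibility per cell cannot be told apart.

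Accessibility at guidance genes was mostly gained in Chd3/4Δβ β cells. A region was called at an edgeR quasi-likelihood adjusted p under 0.05 and a change of at least 2-fold. Of the 238 regions, 109 were higher in Chd3/4Δβ (45.8%), 36 were lower (15.1%) and 93 were neither. Among all listed regions 37.0 percent were higher and 20.4 percent were lower, or 57.4 percent in either direction. The median log2 fold change was 0.92 over guidance regions and 0.56 over all listed regions. Since the authors listed only regions with a false discovery rate under 0.05, nearly every listed region passes on p alone, and a call rests largely on its fold: with no fold threshold 155 guidance regions were higher and 79 lower, against 52.6 percent and 44.9 percent of all listed regions. In 142 guidance regions every Chd3/4Δβ library lay above every Control library and in 71 every one lay below, against 49.3 percent and 38.8 percent of all listed regions. Changes of at least 4-fold were 49 gains and 3 losses, and over all listed regions 17.9 percent were gains and 2.88 percent were losses of that size, so large gains outnumbered large losses in the whole table too. When instead every region inside a guidance gene was taken, whatever symbol the table gave it, 143 of 327 were higher (43.7%) and 72 were lower (22.0%), so the share of losses then lay near the background and not below it. Without Chd3/4Δβ replicate 3 the counts were 113 higher and 38 lower.

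These counts depend on how the libraries were scaled. With TMM, RLE and cyclic loess scaling the median of all listed regions fell to 0.35, 0.25 and 0.14, and the median of guidance regions was 0.71, 0.60 and 0.55. Of called guidance regions 75.2% were higher with the library sizes behind the deposited CPM, 66.4% with TMM, 61.9% with RLE and 61.8% with cyclic loess. The same shares over all listed regions were 64.5%, 53.2%, 48.0% and 47.2%. Guidance regions had the higher median and the larger share of gains than all listed regions under each of these 4 scalings.

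Taking 1 region per gene, the one nearest an annotated transcription start, 19 of 58 guidance genes were higher in Chd3/4Δβ and 4 were lower. Over all genes the shares were 34.4 percent higher and 18.1 percent lower, so gains by this count lay near the background and losses below it. Counting every region, 28 guidance genes had only higher calls, 7 had only lower calls, 12 had both and 11 had none. The shares of all genes with only higher or only lower calls were not computed, so the counts of 28 and 7 have no background. Having both was usual for genes with many regions (15.3 percent of all genes, but 85.1 percent of genes with at least 10 regions). Robo1, Efna5, Sema6d, Unc5c, Dcc, Robo2 and Slit1 had at least 10 regions each and held 96 of the 238. Without these 7 genes the other 142 regions had 62 higher and 18 lower calls and a median of 0.92.

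The families differed in direction. Medians were positive for semaphorins (0.78), plexins and neuropilins (1.08), Eph receptors (1.40), Slits (1.39), netrins and netrin-G ligands (1.06) and netrin receptors (1.19). They were negative for ephrins (−0.60) and Robo receptors (−0.61). Each family kept the sign of its median under TMM, RLE and cyclic loess scaling. The balance of calls moved more: Robo receptors had 13 higher and 10 lower calls in 35 regions, but 11 higher and 16 lower with RLE and 10 and 11 with cyclic loess. After cyclic loess scaling Slits had 3 higher and 2 lower calls (8 and 1 before) and netrins and netrin-G ligands had 1 and 2 (6 and 2 before). Receptor genes had 64 higher and 18 lower calls over 129 regions, and ligand genes had 45 and 18 over 109 regions. Regions of a gene share a target, so these counts describe the loci and are not a test between families.

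**Figure D1:**
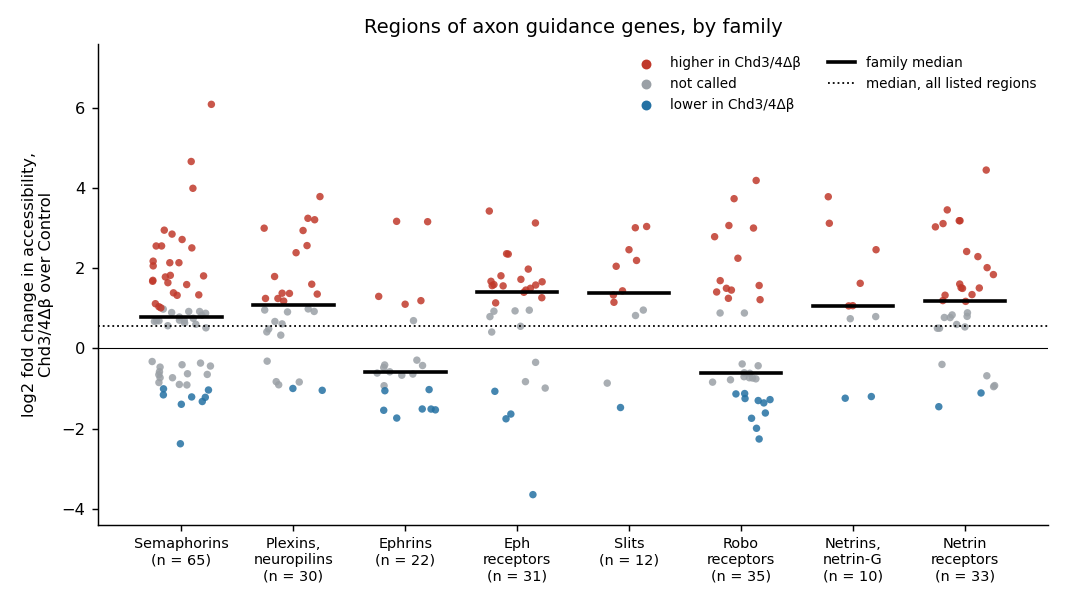
Log2 fold change in accessibility (vertical axis, Chd3/4Δβ over Control) of each of the 238 guidance regions, by family. Points are regions coloured by call, thick bars are family medians and the dotted line is the median of all listed regions (0.56); the ephrin and Robo medians (−0.60 and −0.61) lie below 0 and the other 6 above it.

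Eph receptors, the receptor tyrosine kinases for ephrins, had a median close to that of Slits, with 18 of 31 regions higher and 4 lower over 14 genes. Ephb1, Ephb3 and Ephb4 each had a called promoter region, and with Slit1 they were the guidance genes that did. The Ephb1 promoter (chr9:102354016-102355292, GRCm38) had 22.8, 23.5 and 18.1 CPM in Chd3/4Δβ libraries, against 5.28, 6.40, 5.88 and 8.18 CPM in Control libraries. All Chd3/4Δβ libraries were above all Control libraries (log2 fold change 1.72, SE 0.17, adjusted p = 2.57e-08). The Ephb4 promoter (chr5:137349668-137350423) had 3.38, 1.59 and 1.46 CPM in Chd3/4Δβ and 0.737, 0.705, 0.956 and 0.707 CPM in Control. Its log2 fold change of 1.50 (SE 0.34, adjusted p = 7.03e-04) leaned on Chd3/4Δβ replicate 1: without it the change was 0.99, and after cyclic loess scaling it was 0.59 (adjusted p = 0.20), neither of which is a call. The called Ephb3 promoter region, 571 bases upstream of an annotated start, lay 11.6 kb into the gene of 18.7 kb. It averaged 3.10 ± 0.557 CPM in Chd3/4Δβ and 0.354 ± 0.105 CPM in Control (SD, n = 3 and 4), with a log2 fold change of 3.13, or 1.76 after cyclic loess scaling. The stronger Ephb3 promoter region, 83 bases past the start of a longer transcript, averaged 47.9 ± 2.03 CPM in Chd3/4Δβ and 25.0 ± 2.76 CPM in Control and stayed under the 2-fold threshold (log2 fold change 0.94).

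EphA genes moved both ways. All 3 regions of Epha10, whose kinase domain is catalytically inactive, were higher, the most changed in intron 6 of 14 at 3.07, 2.77 and 2.36 CPM in Chd3/4Δβ and 0.170, 0.109, 0.287 and 0.353 CPM in Control (log2 fold change 3.43, SE 0.36, and 1.58 after cyclic loess scaling). All 3 intronic regions of Epha6 were lower, the most changed at 0.591, 1.13 and 1.18 CPM in Chd3/4Δβ and 3.12, 3.15, 2.30 and 4.05 CPM in Control (log2 fold change −1.76, SE 0.31). The groups did not overlap at either gene. Both regions of Epha4, both of Epha8, and the single regions of Epha5 and Epha7 were also higher, with log2 fold changes of 1.46 to 2.36. For Epha5, the β-cell receptor for ephrin-A5, that region lay in an intron 43021 bases from the start. After cyclic loess scaling the Epha5 region turned to −0.13 and was not called. Epha8 then kept 1 of its 2 calls, and Epha4 and Epha7 kept theirs.

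Ephb2 had 5 higher calls and no lower call among 7 regions (3 and 1 after cyclic loess scaling), the most changed in its first intron at 11.5, 11.98 and 6.02 CPM in Chd3/4Δβ and 3.06, 2.22, 1.96 and 2.78 CPM in Control (log2 fold change 1.98). Ephb6, a kinase-inactive family member, held the deepest loss of any guidance region. An intronic region 2558 bases upstream of an annotated start (chr6:41610470-41611010) had 0.0227, 0.103 and 0.281 CPM in Chd3/4Δβ and 1.30, 2.12, 0.908 and 1.15 CPM in Control (log2 fold change −3.65, SE 0.51, adjusted p = 3.12e-06, and −5.30 after cyclic loess scaling). The lowest of these values is 1 read in Chd3/4Δβ replicate 1. The Ephb6 promoter changed little (27.5 ± 0.756 CPM in Chd3/4Δβ and 34.9 ± 7.24 CPM in Control, log2 fold change −0.35), and a region at a transcript end was higher (log2 fold change 1.56).

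The sequences below are the RefSeq promoter windows of guidance genes that lie in a called region, shown because accessibility rose at the start of the gene itself. Each is the 250 bases before the RefSeq start, on the gene's own strand (GRCm38.p6). Ephb1 and Ephb4 belong to the called promoter regions. Epha10 and Robo3 were added after their values were seen, since the called region over their start is annotated as exon (log2 fold change 1.40) and intron (1.22). Slit1 had no window in the table used, and the Ephb3 window lies in the uncalled region. Capitals mark CAGCTG or CATATG, which are E-boxes, and TAATTA, a homeobox core, each the same on both strands.
Ephb1 promoter, chr9:102354694-102354943, minus strand: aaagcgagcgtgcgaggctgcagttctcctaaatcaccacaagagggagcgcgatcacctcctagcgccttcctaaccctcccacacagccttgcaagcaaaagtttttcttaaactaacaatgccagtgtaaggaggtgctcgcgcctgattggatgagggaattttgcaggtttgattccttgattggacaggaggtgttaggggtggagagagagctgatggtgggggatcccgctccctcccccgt
Ephb4 promoter, chr5:137349859-137350108, plus strand: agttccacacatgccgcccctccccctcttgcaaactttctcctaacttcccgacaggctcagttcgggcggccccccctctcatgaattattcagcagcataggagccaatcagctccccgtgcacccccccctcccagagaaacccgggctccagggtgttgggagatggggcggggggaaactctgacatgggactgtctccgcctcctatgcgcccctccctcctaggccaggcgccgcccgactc
Epha10 promoter, chr4:124881535-124881784, plus strand: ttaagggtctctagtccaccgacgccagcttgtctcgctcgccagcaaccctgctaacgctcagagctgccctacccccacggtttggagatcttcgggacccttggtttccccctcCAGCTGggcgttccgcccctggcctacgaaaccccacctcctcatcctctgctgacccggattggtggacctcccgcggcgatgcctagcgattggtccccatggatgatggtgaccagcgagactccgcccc
Robo3 promoter, chr9:37433176-37433425, minus strand: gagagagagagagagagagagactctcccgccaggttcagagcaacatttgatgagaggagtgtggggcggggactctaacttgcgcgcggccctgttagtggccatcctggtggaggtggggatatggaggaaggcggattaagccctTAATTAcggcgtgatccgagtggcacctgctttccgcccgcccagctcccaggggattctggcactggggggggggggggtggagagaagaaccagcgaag

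The Ephb1 and Ephb4 windows hold none of these motifs, Epha10 holds 1 CAGCTG and Robo3 holds 1 TAATTA. Over whole windows of 300 bases (250 before and 50 after the start), CAGCTG was in 14.1% of 64 windows of guidance genes and 16.3% of all 32851 windows, TAATTA in 4.69% and 5.29%, and CATATG in 0 and 3.91%. Guidance windows were richer in G and C than all windows, with a median GC content of 63.5% against 52.7% and a median of 17.5 against 7 CpG dinucleotides. The printed Ephb1 window was the poorest of the 4 in GC (54.0%). A match is a description of the letters and not a site.

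Of 22 ephrin regions 5 were higher and 7 were lower, and 15 had an adjusted p under 0.05 with a negative change. Without Control replicate 4 the calls were 5 higher and 5 lower. Efna5, which encodes a ligand anchored to the cell surface by a lipid tail, held 18 of these regions and divided at its start. Of 13 regions within the gene, all in its first intron, 6 were lower and 1 was higher, and of 5 regions upstream, the promoter among them, 3 were higher and none was lower. The most changed intronic region (78242 bases into the gene) had 0.454, 0.667 and 0.450 CPM in Chd3/4Δβ and 2.38, 1.36, 1.29 and 2.07 CPM in Control (log2 fold change −1.74, SE 0.34, and −2.53 after cyclic loess scaling). The most changed upstream region (13369 bases before the start) had 1.52, 1.64 and 1.91 CPM in Chd3/4Δβ and 0.170, 0.109, 0.287 and 0.165 CPM in Control. Its log2 fold change of 3.17 (SE 0.37) was 0.48 after cyclic loess scaling (adjusted p = 0.40). The promoter itself, a wide region of 4663 bases, had 79.8, 86.3 and 86.3 CPM in Chd3/4Δβ and 113, 117, 119 and 156 CPM in Control, with no overlap but under the 2-fold threshold (log2 fold change −0.58, adjusted p = 8.13e-05), and after cyclic loess scaling the change was −0.071 (adjusted p = 0.93). Efna1 was lower at a region 7174 bases upstream (−1.51) and Efnb1 was higher in its last exon (1.10), while the regions over their starts fell by 0.29 and 0.41 on the log2 scale, short of a call.

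Slit1, a secreted repellent, had 8 higher and no lower call in 10 regions, with a median log2 fold change of 1.74. After cyclic loess scaling 3 were higher and 1 was lower, with a median of 0.75. Its promoter (chr19:41743071-41743831) had 6.38, 6.80 and 4.11 CPM in Chd3/4Δβ and 0.794, 1.09, 1.43 and 1.60 CPM in Control, so the groups were well apart (log2 fold change 2.20, SE 0.26, adjusted p = 3.41e-07). Within intron 24 of 35 a region had 1.93, 2.28 and 1.63 CPM in Chd3/4Δβ and 0.227, 0.434, 0.335 and 0.0707 CPM in Control (log2 fold change 3.04), which after cyclic loess scaling was 0.78 and not called (adjusted p = 0.16). Slit2 had 1 region, which was lower at 0.477, 0.744 and 1.24 CPM in Chd3/4Δβ and 1.99, 2.71, 1.91 and 2.00 CPM in Control (log2 fold change −1.48). The 1 Slit3 region was not called (0.96, groups overlapping).

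The Slit receptors Robo1 and Robo2 had both gains and losses, as did 85.1 percent of all genes with at least 10 regions. Robo1 had 22 regions, all within the gene, of which 8 were higher and 7 were lower. In exon 24 of 29 (chr16:73012750-73013375) Chd3/4Δβ libraries had 6.41, 6.72 and 6.47 CPM and Control libraries had 0.170, 0.434, 0.0956 and 0.566 CPM (log2 fold change 4.19, SE 0.33, adjusted p = 7.74e-10). Within an intron 7936 bases upstream of an annotated start (chr16:72555508-72556020) Chd3/4Δβ libraries had 0.159, 0.308 and 0.675 CPM and Control libraries had 2.27, 1.57, 1.43 and 1.23 CPM (log2 fold change −2.26, SE 0.41, and −3.39 after cyclic loess scaling). The groups were apart in both regions, in opposite directions within 1 gene. The region over a Robo1 start in exon 1 held 40.1 ± 9.66 CPM in Chd3/4Δβ and 52.1 ± 6.85 CPM in Control, with overlapping groups (log2 fold change −0.39).

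Robo2 had 3 higher and 3 lower calls in 10 regions. Within the gene there were 2 of each in 7 regions, and both regions described next lie downstream of the RefSeq gene. A region 65287 bases from its nearest start had 1.61, 1.77 and 1.74 CPM in Chd3/4Δβ and 0.284, 0.109, 0.0956 and 0.0707 CPM in Control (log2 fold change 3.74, but 0.53 with adjusted p = 0.37 after cyclic loess scaling). Another, 18253 bases from its nearest start, had 2.63, 4.31 and 6.70 CPM in Chd3/4Δβ and 10.8, 11.2, 11.3 and 11.9 CPM in Control (log2 fold change −1.36, SE 0.23). The Robo2 promoter had 44.1, 51.8 and 69.7 CPM in Chd3/4Δβ and 71.1, 69.5, 67.8 and 88.3 CPM in Control, overlapping through replicate 3 of Chd3/4Δβ (log2 fold change −0.43, and −0.086 after cyclic loess scaling). Robo3, a divergent receptor that lets commissural axons cross the midline, had 2 higher calls and no lower call, with 15.9 ± 0.507 CPM in Chd3/4Δβ and 6.86 ± 0.851 CPM in Control at the region over its start.

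**Figure D2:**
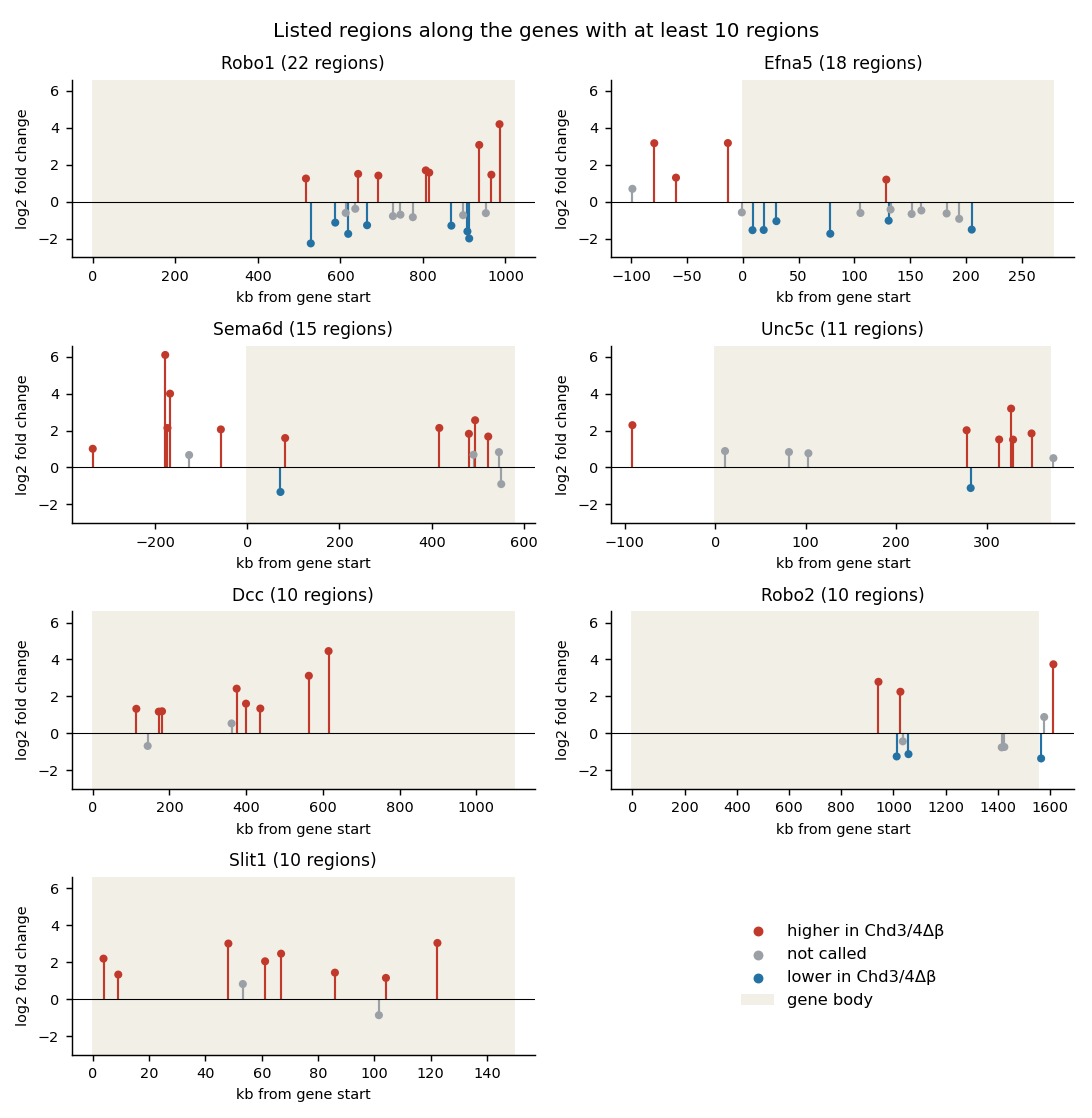
Log2 fold change (vertical axis) of each listed region of the 7 genes with at least 10 regions, against its distance in kb from the 5′ end of the RefSeq gene, whose body is shaded. Stems are coloured by call; with the deposited library sizes Slit1 and Dcc have 8 gains each and no called loss (after cyclic loess scaling 3 gains and 1 loss, and 5 gains), Robo1 has 8 gains among 7 losses, and Efna5 gains lie upstream of the start except 1.

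Netrin receptors were mainly higher, with 18 gains and 2 losses in 33 regions (12 and 4 after cyclic loess scaling). Dcc, the attractive netrin receptor, had 10 regions inside its long gene, of which 8 were higher (5 after cyclic loess scaling). The region of Dcc that changed most lay in intron 5 of 28. Its Chd3/4Δβ libraries had 5.56, 4.44 and 5.85 CPM and its Control libraries 0.113, 0.380, 0.335 and 0.165 CPM, a log2 fold change of 4.45 (SE 0.33, adjusted p = 3.76e-10, and 3.08 after cyclic loess scaling). No listed Dcc region lay at an annotated start: the nearest was 113441 bases away. Unc5c, a repulsive netrin receptor, had 6 higher and 1 lower call in 11 regions. Its most changed region, 2469 bases past an annotated start, had 1.07, 1.80 and 1.29 CPM in Chd3/4Δβ and 0.113, 0.163, 0.0956 and 0.189 CPM in Control (log2 fold change 3.19). Of the 34 regions described in full, this was the only one whose direction turned under an alternative, to −0.029 with cyclic loess scaling (adjusted p = 1.0). Its lower region had 1.57, 1.44 and 0.731 CPM in Chd3/4Δβ and 2.38, 3.20, 2.15 and 3.39 CPM in Control (log2 fold change −1.11), and was no longer called without Chd3/4Δβ replicate 3 (−0.90) or without Control replicate 4 (−0.99).

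Unc5a had 2 gains and 1 loss in 7 regions, the loss 2466 bases upstream at 0.863, 1.57 and 1.63 CPM in Chd3/4Δβ and 2.84, 5.48, 3.16 and 3.13 CPM in Control (log2 fold change −1.46). Unc5b gained 2 intergenic regions 9702 and 13766 bases upstream (log2 fold changes of 3.19 and 3.46) while its promoter fell by 0.40 on the log2 scale and was not called. After cyclic loess scaling none of the 3 Unc5b regions was called, and their median was 0.077. The classical netrins Ntn1, Ntn3 and Ntn4 had no listed region. Ntn5 had 1 region, which was lower (−1.20). The netrin-G ligands, which are anchored to the membrane and bind other partners than DCC, gained 3 regions each: Ntng1 had 3 higher and no lower call, and Ntng2 had 3 higher and 1 lower. After cyclic loess scaling Ntng1 had 1 higher call and Ntng2 had none.

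An exonic region of Ntng1 had 1.68, 2.44 and 1.41 CPM in Chd3/4Δβ and 0.0567, 0.271, 0.526 and 0.0707 CPM in Control (log2 fold change 3.12, and 0.63 with adjusted p = 0.42 after cyclic loess scaling). An intronic region of Ntng2 had 2.32, 1.64 and 1.18 CPM in Chd3/4Δβ and 0.0567, 0.217, 0.191 and 0.0707 CPM in Control (log2 fold change 3.79, and 0.45 with adjusted p = 0.57 after that scaling). A value of 0.0567 CPM in Control replicate 1 is 1 read, so these folds rest on few Control reads. The Ntng2 region that was lower had 1.45, 0.898 and 1.63 CPM in Chd3/4Δβ and 2.67, 4.34, 2.87 and 2.57 CPM in Control (log2 fold change −1.24).

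Semaphorins made up 65 regions over 18 genes, with 26 higher and 8 lower calls. Sema6d, a transmembrane class 6 semaphorin, held the largest change of any guidance region. An intergenic region 177936 bases upstream of its nearest start (chr2:123911678-123912389) had 17.3, 17.4 and 17.3 CPM in Chd3/4Δβ and 0.170, 0.163, 0.335 and 0.283 CPM in Control (log2 fold change 6.09, SE 0.24, adjusted p = 9.94e-14). It was nearly closed in every Control library and among the more open guidance gains in Chd3/4Δβ. All 6 Sema6d regions upstream of the gene had a positive change and 5 were called. Of the 9 within the gene 5 were higher and 1 was lower, at 2.09, 2.64 and 4.11 CPM in Chd3/4Δβ and 5.84, 7.38, 7.41 and 7.94 CPM in Control (log2 fold change −1.33, SE 0.23).

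Sema6a, of the same class, had 3 higher calls and no lower call in 7 regions. An intronic region had 3.38, 3.39 and 4.11 CPM in Chd3/4Δβ and 0.454, 0.326, 0.335 and 0.636 CPM in Control (log2 fold change 2.95, SE 0.31). Its promoter had 55.9, 59.1 and 59.6 CPM in Chd3/4Δβ and 38.7, 39.6, 38.7 and 45.7 CPM in Control, apart but under the 2-fold threshold (log2 fold change 0.51). Sema4d, the ligand of plexin B1, moved the other way outside its promoter: 2 of its 5 regions were lower and none was higher. In an intron 6911 bases upstream of a start it had 0.636, 0.462 and 1.63 CPM in Chd3/4Δβ and 4.37, 4.07, 5.31 and 3.46 CPM in Control (log2 fold change −2.38, SE 0.34, adjusted p = 4.05e-06). Among the secreted class 3 semaphorins, which act through neuropilins, Sema3b, Sema3d, Sema3f and Sema3g had 1 higher region each, Sema3a and Sema3e had 1 lower region each, and Sema3c had none called. After cyclic loess scaling Sema3b and Sema3f had no call and Sema3c had 1 lower call. Sema3d had no call with TMM or RLE scaling. The Sema3g gain in intron 13 of 15 was the second largest change among semaphorins, at 4.40 ± 0.589 CPM in Chd3/4Δβ and 0.168 ± 0.0519 CPM in Control (log2 fold change 4.67). Sema5a, a transmembrane semaphorin with thrombospondin repeats, had 5 higher and 1 lower call in 7 regions.

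Plexins and neuropilins, the semaphorin receptors, had 15 higher and 2 lower calls in 30 regions. Plxnd1, the receptor for class 3 semaphorin Sema3e, had 3 higher calls and no lower call in 4 regions. In intron 23 of 35 it had 10.5, 8.01 and 7.09 CPM in Chd3/4Δβ and 0.794, 0.651, 1.29 and 0.848 CPM in Control (log2 fold change 3.25, SE 0.25, adjusted p = 5.67e-10). Its promoter had 9.38, 8.31 and 6.19 CPM in Chd3/4Δβ and 4.14, 3.26, 3.92 and 5.40 CPM in Control. That change of 0.92 on the log2 scale missed the fold threshold, and passed it without Chd3/4Δβ replicate 3 (1.06) or without Control replicate 4 (1.09). With the deposited library sizes both losses of the family lay at Plxna2, which also had 4 gains. With TMM, RLE or cyclic loess scaling Plxna2 had 4 losses. In its first intron it had 2.23, 2.67 and 3.71 CPM in Chd3/4Δβ and 5.05, 6.13, 5.98 and 6.01 CPM in Control (log2 fold change −1.05), a change that fell under 2-fold without Chd3/4Δβ replicate 1 (−0.89) or with a term for libraries above or below 30 M reads (−0.97). In intron 3 of 4 of another transcript it had 5.79, 5.80 and 5.18 CPM in Chd3/4Δβ and 0.113, 0.380, 0.526 and 0.495 CPM in Control (log2 fold change 3.79, SE 0.31). Of the neuropilins, Nrp1 had 2 higher calls in 6 regions (33.3%) and Nrp2 had 1 in 2, against 37.0 percent of all listed regions. Neither had a lower call, but with TMM, RLE or cyclic loess scaling Nrp1 had 1.

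**Figure D3:**
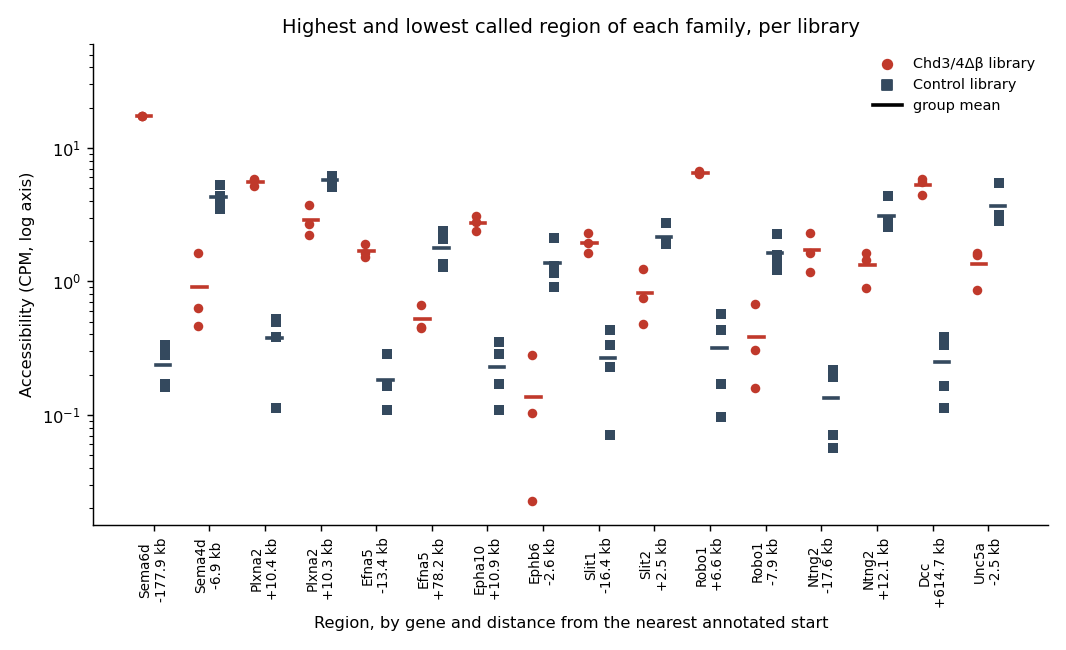
Accessibility in CPM (log axis) of the region with the highest and the region with the lowest log2 fold change among the called regions of each family, with 1 point per library and group means as lines. The 3 Chd3/4Δβ libraries lie wholly above or wholly below the 4 Control libraries in all 16 regions, from Sema6d at 17.3 CPM in Chd3/4Δβ to Ephb6 at 0.136 CPM.

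Regions that were gained started from little accessibility. The 109 higher regions had a median of 3.71 CPM in Chd3/4Δβ and 0.896 CPM in Control, and 61 of them (56.0%) averaged under 1 CPM in Control, against 59.1% of all higher listed regions. The 36 lower regions had a median of 0.962 CPM in Chd3/4Δβ and 2.60 CPM in Control, and the most open called region averaged 29.3 CPM in Chd3/4Δβ. The authors kept regions that passed 1 CPM in 3 or more libraries, so a region nearly closed in one group entered the table through the other and had to differ.

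By annotation class, intronic regions made up 59.2% of guidance regions, against 47.6% of all listed regions, and intergenic regions 19.7% against 32.3%. Promoters of guidance genes changed least: 4 of 25 were higher (16%, against 22.1 percent of all listed promoters) and none was lower (against 8.94 percent). Introns had 63 higher and 28 lower calls in 141 regions (35.0 percent and 24.0 percent over all listed introns). Intergenic regions had 28 and 7 calls in 47 (46.9 percent and 18.5 percent), exons 7 and 0 in 15 (27.6 percent and 19.7 percent) and transcription termination sites (TTS) 7 and 1 in 10 (34.1 percent and 24.7 percent). The median change of promoters was 0.57 at guidance genes and −0.31 over all listed promoters. Of 180 pairs of neighbouring regions of one guidance gene, 66.7% changed in the same direction, against 59.7% of 34150 such pairs over all genes.

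**Figure D4:**
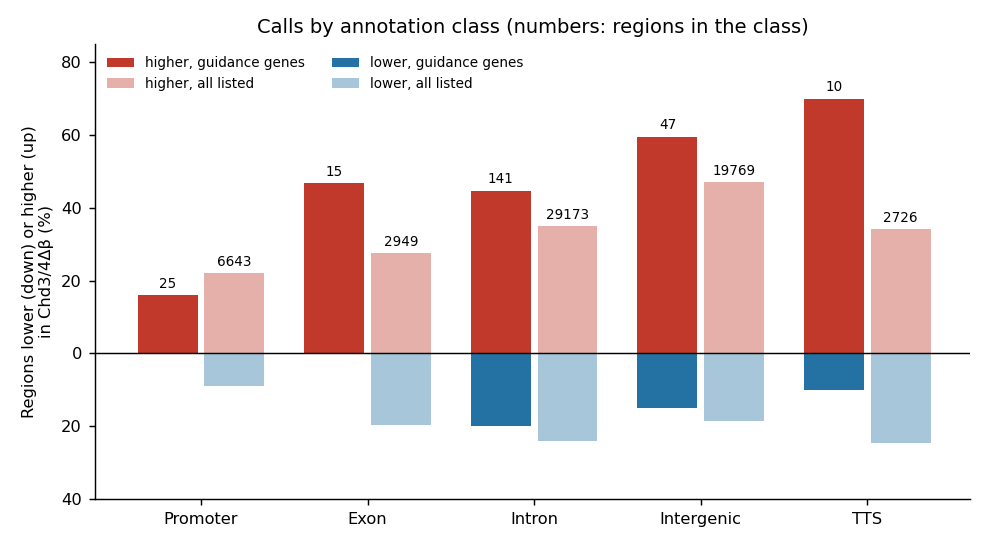
Share of regions (vertical axis, percent) that were higher (upward bars) or lower (downward bars) in Chd3/4Δβ, by annotation class, with guidance genes in full colour and all listed regions in pale colour. Numbers over the bars are the regions in each class; guidance promoters have 16% gains and no loss, and guidance intergenic regions 59.6% gains.

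The promoter and the other regions of one gene did not always move together. For 19 guidance genes with a listed promoter and another region, the log2 CPM of the promoter minus the mean log2 CPM of the others was compared between groups with limma. Relative to its other regions the promoter was called lower in Chd3/4Δβ for 7 genes and higher for 2, against 29.3 percent lower and 17.3 percent higher over 3518 genes. The median was −0.83 for guidance genes and −0.22 over all genes. At Sema3g the difference was 1.92, 2.10 and 2.55 in Chd3/4Δβ and 6.99, 6.53, 7.46 and 6.39 in Control (change −4.65, SE 0.28, adjusted p = 1.52e-07). At Unc5b it was 4.51, 4.31 and 5.02 in Chd3/4Δβ and 8.03, 7.59, 8.21 and 7.91 in Control (change −3.32, SE 0.23). In both genes the promoter itself changed by less than 2-fold (log2 fold changes of −0.41 and −0.40) while every other region was gained. Those other regions (1 at Sema3g and 2 at Unc5b) were nearly closed in Control. They entered the table through Chd3/4Δβ and had to differ, so both drops and their p-values largely follow from the listing. After cyclic loess scaling the Sema3g gain was still called, but neither Unc5b gain was. The promoter difference was not refitted under that scaling. Plxnd1, Nrp2, Sema5b, Sema6a and Sema6c were also lower, with changes of −1.75 to −1.15. For Plxnd1 the promoter compared was the annotated region 38.2 kb into the gene, not its RefSeq start. Sema4d (1.84) and Sema4a (1.13) were higher, with promoter log2 fold changes of 0.63 and 0.57 and a negative change in each of their other regions.

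**Figure D5:**
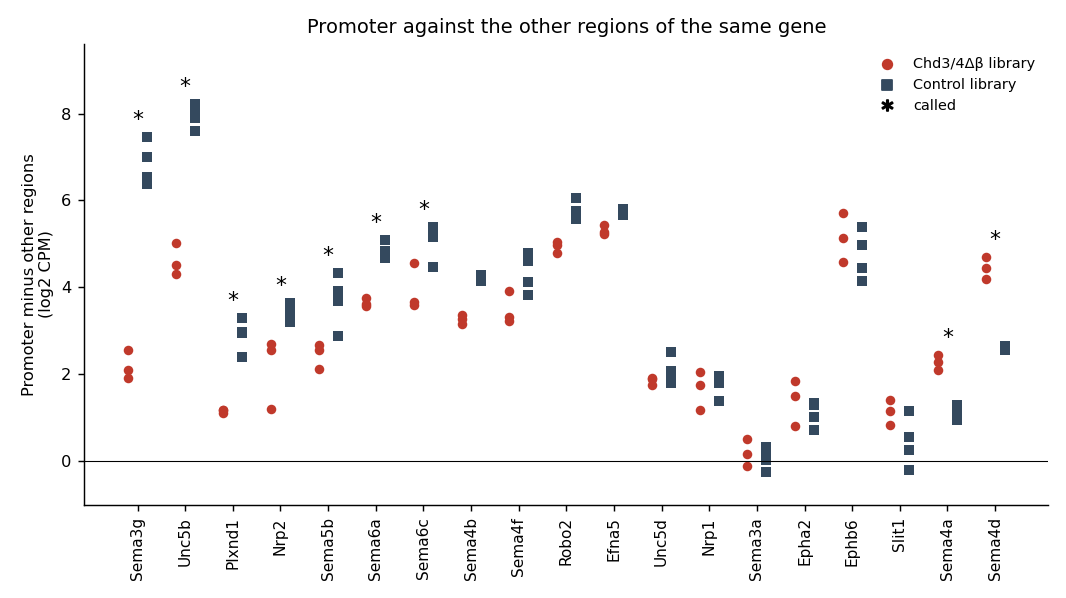
Log2 CPM of the promoter minus the mean of the other regions of the same gene (vertical axis), per library, for 19 guidance genes ordered by the change between groups. Circles are Chd3/4Δβ libraries, squares are Control libraries and asterisks mark called genes; Sema3g and Unc5b drop furthest, by 4.65 and 3.32, and Sema4d rises by 1.84.

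Other genes of the guidance pathway were read from a list of 70 adaptors, kinases, adhesion molecules, co-receptors and other signalling genes. Of these 62 had 335 listed regions, of which 110 were higher (32.8%), 69 were lower (20.6%) and 156 were neither, with a median of 0.52. These shares lie near those of all listed regions, below the ligand and receptor genes for gains. By the region nearest the start, 18 of the 62 genes were higher (29.0%) and 6 were lower (9.68%). Both shares lie below those of all genes, 34.4 percent and 18.1 percent. Nrcam, a neuronal adhesion molecule of the L1 family, had 10 calls, of which 9 were lower. It was picked from the 62 genes after its values were seen and runs against the balance of the list.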

How the data were processed

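ATAC-seq libraries of sorted β cells, 3 Chd3/4Δβ and 4 Control, were compared; groups came from the sample titles. The authors deposited counts per region and library, and CPM values that they had scaled to a library size of their own. Each deposited p-value comes from their likelihood ratio test. These p-values served only to find that 109675 regions had been tested, of which 55.9% were listed at a false discovery rate up to 0.05; their fold changes and significance columns hold their own comparison and were not used. The aligner, peak caller, counting tool and Tn5 shift are not given in the sources used here.

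Counts were fitted with edgeR 4.0.16 (robust quasi-likelihood F-test, R 4.3.3) with library sizes taken as deposited count over CPM, and p-values were adjusted by Benjamini-Hochberg over the 109675 regions. Promoters were compared with other regions of the same gene by limma 3.58.1 (log2 CPM, prior count 2, adjusted over 3518 genes). Both fits were tested on simulated data. Alternatives were TMM, RLE and cyclic loess scaling, DESeq2 1.42.0, a likelihood ratio test, adjustment over listed regions, a filter at 3 CPM, no fold threshold, a depth term at 30 M reads, a replicate block, each library left out, and a limit on distance. Assignment by gene body was added after seeing the data.

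Labels name GRCm39, but coordinates were read as GRCm38: 74.8% of 4494 promoter regions lay within 2000 bases of a RefSeq GRCm38.p6 start, against 2.65% of 6530 for the gene starts in the table. Gene symbols, classes and distances (to the nearest start of any transcript) are as deposited. Promoter windows are from RefSeq (GRCm38.p6) and were matched for 50 of the 58 genes.

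Members and lists were chosen with earlier results of these data known. Genes named in full were, per family, those with the highest and lowest called change, and those with a called promoter, at least 10 regions, or at least 3 calls in 1 direction; other genes were named after their values were seen. Errors are SDs over libraries.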

Additional observations from a re-analysis of the deposited data

Results flagged for a closer look

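In 8 of 34 described regions 1 Control library stood far from the other 3 by Dixon's criterion at the 95% level for 4 samples, which chance gives in about 1 in 20 groups. The groups of 3 Chd3/4Δβ libraries are too small for it. Control replicate 4 was high at the promoters of Robo2 (88.3 CPM), Efna5 (155.8 CPM) and Sema6a (45.7 CPM). Control replicate 2 was high at Slit2 (2.71 CPM), at the Unc5a region 2466 bases upstream (5.48 CPM) and at the lower Ntng2 region (4.34 CPM). Control replicate 3 was high at the Ephb4 promoter (0.956 CPM), and Control replicate 1 was low at the lower Plxna2 region (5.05 CPM).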

How the results depend on the processing

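Of 529 comparisons of a region described in full with an alternative, 514 kept direction and call, 11 lost the call and 3 gained it. In the remaining 1 the direction turned, for the Unc5c region 2469 bases past a start, at −0.029 after cyclic loess scaling. The single Epha5 region was not among these comparisons and turned too, to −0.13 after that scaling. With RLE scaling 56 guidance regions were lower, the median was 0.60, 7 genes were lower by their nearest region and 19441 listed regions were lower. The median was 0.71 with TMM. With cyclic loess it was 0.55, 12 genes were higher by their nearest region and 14012 listed regions were higher. Requiring 3 CPM in 3 libraries left 52 higher and 14 lower guidance regions, a median of 0.75, and 10365 higher and 5143 lower listed regions. With no fold threshold 79 guidance regions and 27489 listed regions were lower, and by nearest region 39 genes were higher and 18 lower. Taking every region inside a guidance gene, chosen after seeing the data, gave 143 higher and 72 lower of 327.

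Leaving out each library gave 108 to 113 higher and 27 to 38 lower guidance regions, a median of 0.86 to 0.94, 17 to 22 genes higher and 3 to 5 lower by nearest region, and 22287 to 23300 higher and 10713 to 14260 lower listed regions. For promoters against other regions it gave 2 genes higher in every case and 6 to 8 lower. Same-numbered libraries deviated together at r = 0.068, −0.031 and −0.016, within the range of differently numbered pairs (−0.122 to 0.071). With so few libraries this cannot settle whether the numbers mark pairs. With a replicate block 109 guidance regions were higher and 36 lower (22783 and 12599 of all listed). The annotated Plxnd1 promoter region then became a call (1.07). Regions under about 1 CPM rest on few reads, where folds are least certain.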
